A study of Saccharomyces cerevisiae with 68 samples.

Results

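The mitochondrial ribosomal protein genes of Saccharomyces cerevisiae were followed through a shift from 25C to 37C in 5 yeast strains and at steady growth at 25C. They were the reading frames whose R64 symbol starts with MRPL, MRPS, RSM or MRP followed directly by digits. Of the 6297 reading frames in the deposited table, 67 met this rule. Of these, 66 encode proteins of the mitochondrial ribosome, 38 of the large and 28 of the small subunit. MRP8 met the rule by its name but is not known as a ribosomal protein, so it was kept out of every count. The genes were spread over 14 chromosomes, with 12 on IV and 10 on XIV.

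The mitochondrial ribosome translates the few messages of the mitochondrial genome, most of which encode core subunits of the respiratory chain and the ATP synthase. Nearly all of its proteins are encoded in the nucleus, made in the cytosol and imported. Some descend from the proteins of a bacterial ribosome and others are found only in mitochondria. In yeast growing on glucose the demand for respiration is low, and many of these messages are bound by the RNA-binding protein Puf3.

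Cells had been grown in log phase in the rich medium YPD at 25C, and prewarmed medium was added to bring each culture to 37C. RNA of K9, M22, RM11-1a, YPS163 and DBY8268 was taken 5, 15, 30, 45, 60 and 120 min after the shift and compared on 2-colour arrays with RNA of the same strain at 25C. DBY8268 is the laboratory reference, related to S288c, and the other 4 are non-laboratory strains. Each strain had 2 series of 6 arrays, so 60 arrays in all. A further 8 arrays compared K9, M22, RM11-1a and YPS163 at 25C with DBY8268 at 25C, 2 for each strain. Whether the 2 series are separate cultures is not given by any label, so the p-values speak of the variation among these arrays alone, and that variation could be technical.

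Every value below is a log2 ratio, heated over unheated RNA or a strain over DBY8268, and 1 on this scale is a 2-fold difference. It compares shares of the labelled RNA, so fewer copies of a message per cell and more of all other RNA cannot be told apart. Over all genes, the medians of the time-course arrays lay between -0.17 and 0.28 and those of the 25C arrays between -0.09 and 0.03. A time-course array held 3418 to 6098 values (median 5304), among them 46 to 66 of the mitoribosomal genes. The 1 RM11-1a array at 25C that measured URA3 gave a ratio of -6.43 for it. In M22, RM11-1a, YPS163 and DBY8268 the dyes were swapped between series 1 and series 2, whereas both K9 time courses carried the heated RNA in the same dye. For the common response the ratio was averaged over the 5 strains, and a gene was called where the Benjamini-Hochberg adjusted p over all 4360 genes tested was under 0.05 in limma's fit.

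The mitoribosomal genes spread less than all genes on every heat-shock array used, and their median over the 5 strains stayed within 0.23 of the 25C level. Their standard deviation on an array was 0.264 to 0.553 (median 0.375), while that of all genes was 0.528 to 1.47 (median 0.763), and it was the smaller of the 2 on 60 of 60 arrays. Their median over the 5 strains, in the order of the 6 times, was -0.23, 0.13, 0.19, 0.08, -0.13 and -0.03. The median of all genes at those times was -0.04, -0.01, 0.11, 0.09, 0.02 and 0.05. Taken from each array's own median, the mitoribosomal medians became -0.25, 0.09, 0.07, -0.01, -0.18 and -0.10, so the sign at 45 min turns with the centring. The average over strains was thus lowest at 5 min, slightly above the 25C level at 15 and 30 min and below it at 60 min. The strains did not all follow it: the median at 15 min was -0.14 in K9 and -0.0025 in YPS163, and at 30 min -0.08 in YPS163. The dip at 5 min was uneven between series. In DBY8268, RM11-1a and YPS163 the series 1 medians were -0.24, -0.26 and -0.49, and those of series 2 -0.02, -0.04 and -0.02. Taken from the array's own median, these series 2 values were -0.09, -0.12 and -0.24. In K9 and M22 both series were at -0.30 or below.

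**Figure D1:**
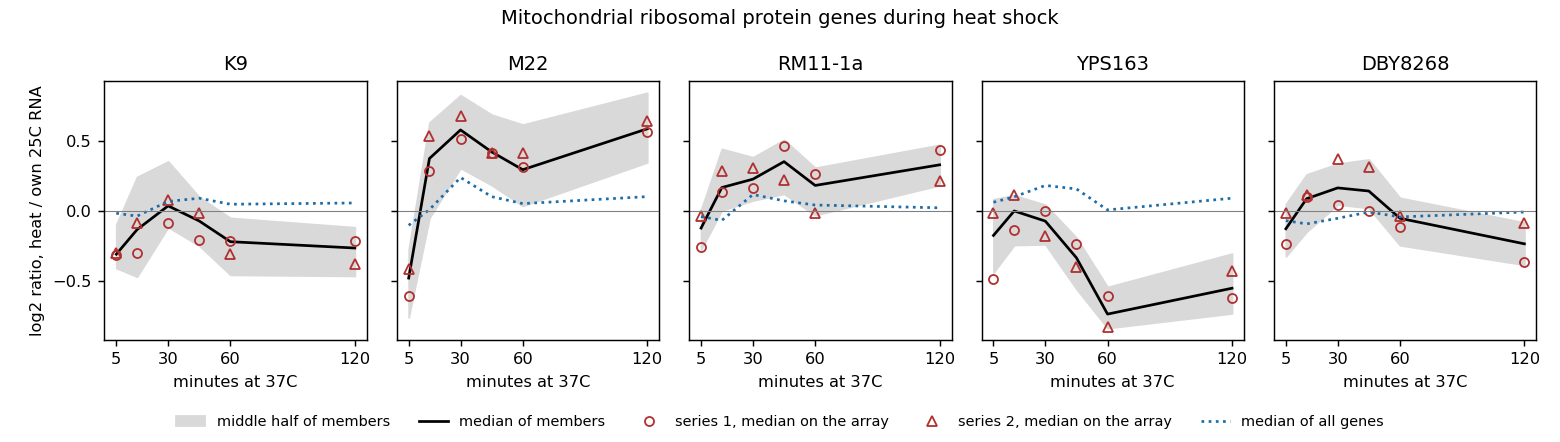
Log2 ratio of the mitoribosomal genes to the same strain at 25C (vertical axis) against minutes at 37C, 1 panel for each of 5 strains; the line is the median over genes, the band the middle 50% of genes, circles and triangles the medians of series 1 and series 2, and the dotted line the median of all genes. The fitted medians of all 5 strains lie below 0 at 5 min, with series 2 of DBY8268, RM11-1a and YPS163 near 0. The strains separate later, with M22 above 0 from 15 min on and YPS163 at -0.74 at 60 min.

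The early dip was shared by both subunits. At 5 min 33 of 64 tested mitoribosomal genes fell and 2 rose, MRPL28 and RSM19, while 36.2% of all genes fell and 31.1% rose. Of the large subunit 19 of 37 fell, and of the small subunit 14 of 27. At 15 min 27 rose and 13 fell, against 38.1% and 39.9% of all genes. At 30 min 33 rose and 3 fell, MRPL36, MRPL15 and MRP4, against 40.6% and 26.8% of all genes. At 45 min 22 rose and 6 fell, against 33.7% and 20.4% of all genes. At 60 min 4 rose, MRPL28, RSM19, RSM7 and MRP35, and 20 fell, against 24.3% and 22.6% of all genes. At 120 min 9 rose and 13 fell, against 30.7% and 20.9%. With the array code prefix as a covariate the called members were 20 at 15 min, 4 at 45 min and 11 at 120 min, in place of 40, 28 and 22. Scaling every array to one spread left 22 at 15 min and gave 37 at 60 min in place of 24. Few mitoribosomal genes thus rose at 5 min and at 60 min, and few fell at 30 min. The counts leaned on single series: without series 1 of M22 the called members from 15 min on were 18, 20, 15, 10 and 11. Without series 2 of DBY8268 the counts at 30 and 45 min were 22 and 17, and without series 1 of DBY8268 15 at 60 min. Without series 2 of K9 they were 18 at 45 min, without series 2 of YPS163 15 at 60 min and 13 at 120 min, and without series 2 of M22 or RM11-1a 14 and 12 at 120 min.

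MRPL28 was the gene that rose most at 15 min. It encodes a large-subunit protein with no bacterial counterpart. At 15 min its ratio was 0.54 and 1.05 in K9, 1.01 and 1.84 in M22, 0.74 and 1.05 in RM11-1a, 0.78 and 0.58 in YPS163, and 0.51 and 0.64 in DBY8268, series 1 before series 2. All 10 arrays stood above 0, and M22 series 2 was the highest. The common response was 0.89 with a standard error of 0.09 (limma, adjusted p = 8.66e-11), and it was 0.88 ± 0.09 (SE) at 30 min and 0.53 ± 0.09 at 120 min. RSM19 encodes the counterpart of bacterial ribosomal protein S19 of the small subunit. Its 15 min ratio was 0.11 and 0.46 in K9, 0.97 and 0.96 in M22, 0.56 and 1.14 in RM11-1a, 0.27 and 0.65 in YPS163, and 0.83 and 0.82 in DBY8268. It too was above 0 on 10 of 10 arrays, lowest in K9, with a common response of 0.68 ± 0.07 (SE; limma, adjusted p = 2.75e-11). MRP10, a small-subunit protein of the twin-CX9C kind, was above 0 on all 9 arrays that measured it, YPS163 having 1 value, and its common response was 0.73 ± 0.11 (SE; limma, adjusted p = 5.1e-07). MRPL16, the counterpart of bacterial L16, rose by 0.71 ± 0.09 (limma, adjusted p = 3.2e-09). RSM28 rose by 0.67 ± 0.12 (limma, adjusted p = 8.72e-06), with one high array, M22 series 2 at 2.32, and the other 9 between 0.15 and 0.79. At 30 min MRPL25 (0.65 ± 0.13) and RSM7 (0.57 ± 0.10), the counterpart of bacterial S7, joined MRPL28, RSM19 and MRP10 among the highest. Over all 64 tested members the common response at 15 min ran from -1.17 to 0.89, the middle 50% of genes lay between -0.14 and 0.29, with a median standard error of 0.08.

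MRPL36 went the other way. It encodes the counterpart of bacterial L31, a protein at the contact between the subunits. Its 15 min ratio was -0.93 and -0.95 in K9, -1.27 on the 1 M22 array that measured it, -0.78 and -1.21 in RM11-1a, -0.73 and -1.29 in YPS163, and -1.81 and -1.53 in DBY8268. The fall was seen on all 9 arrays and was deepest in DBY8268, although the strains did not differ by the F test (adjusted p = 0.247 in limma). The common response was -1.17 ± 0.11 (SE; limma, adjusted p = 2.67e-11), and it shrank to -0.56 ± 0.11 at 30 min and to -0.23 ± 0.11 at 120 min. MRPL15, a large-subunit protein with a ribonuclease III-like fold, had a longer fall. Its common response was -0.80 ± 0.15 at 15 min (limma, adjusted p = 1.34e-05) and -0.89 ± 0.14 at 45 min. On single arrays at 45 min it ranged from -1.80 (K9 and M22) to 0.65 (DBY8268), and the strains differed (F test in limma, adjusted p = 0.0131). MRPL37 and MRPL20, both large-subunit proteins without a bacterial counterpart, had an early fall. Their ratios at 5 min were -0.72 and -0.71, those at 15 min -0.64 and -0.52, and those at 30 min -0.06 and -0.02. MRPL50, the counterpart of bacterial L9, fell by 0.46 at 15 min with a standard error of 0.10 (limma, adjusted p = 0.000163).

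**Figure D2:**
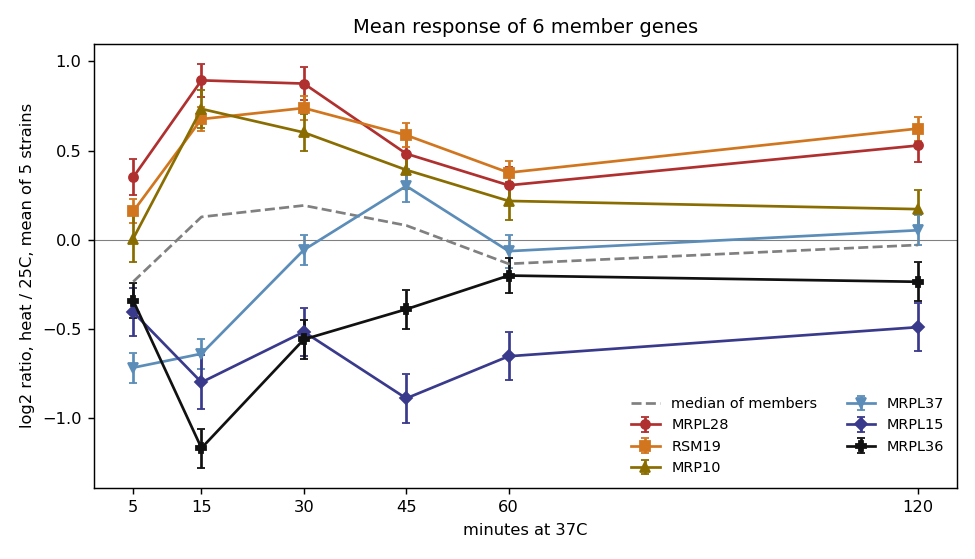
Common response over 5 strains (log2 ratio to 25C, vertical axis) against minutes at 37C for 6 mitoribosomal genes and the median of all tested members; error bars are standard errors of limma's fit. MRPL28, RSM19 and MRP10 stood above the median of the members at 15 min, and MRPL36, MRPL15 and MRPL37 below it.

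The 2 subunits followed each other closely. At 15 min 18 of 37 large-subunit genes rose and 7 fell (median 0.15), and 9 of 27 small-subunit genes rose and 6 fell (median 0.09). At 30 min 20 large-subunit genes rose and 2 fell, and 13 small-subunit genes rose and 1 fell. On single arrays the large-subunit median minus the small-subunit median was -0.17 to 0.365 (median 0.05), and the large subunit was the higher on 38 of 60 arrays and the small subunit on 21. In K9 the large subunit was the higher on 12 of 12 arrays, by 0.005 to 0.365, and the gap was 0.165 and 0.365 at 15 min. In M22 it was the higher on 6 of 12 arrays, in RM11-1a on 7, in YPS163 on 8 and in DBY8268 on 5. Both K9 series carried the heated RNA in the same dye, so the K9 arrays alone cannot separate strain and dye in this gap. In the fit, whose dye term comes from the strains with swapped dyes, the K9 large-subunit median stayed the higher at each time. It was -0.009 against -0.284 at 15 min and -0.197 against -0.349 at 60 min. Series 1 of the other strains shared the K9 dye. There the gap was -0.17 to -0.015 in DBY8268 and 0 to 0.22 in YPS163. It took both signs in M22 and RM11-1a. The part of the dye in the K9 gap was not tested. The genes without a bacterial counterpart had the lower median on 10 of 10 arrays at 5 min, by 0.08 in the median array (-0.08), and on 8 of 10 at 15 min. At 45 min they had the higher median on 8 of 10 arrays and at 60 min on 7 of 10.

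**Figure D3:**
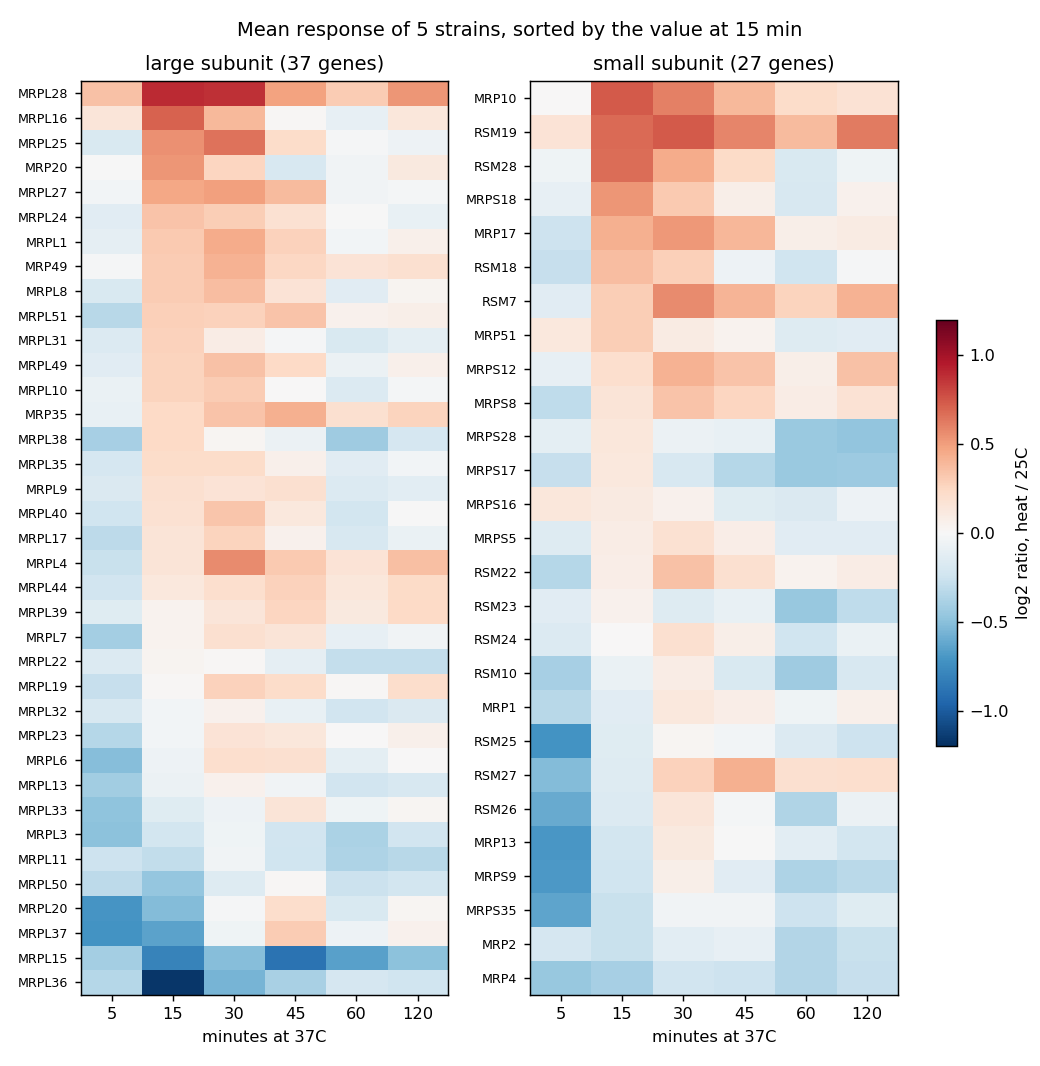
Common response (colour, log2 ratio to 25C, mean of 5 strains) of 37 large-subunit and 27 small-subunit genes at 6 times after the shift, ordered within each subunit by the 15 min value. Both subunits show the same sequence of a low column at 5 min and higher columns at 15 and 30 min, with MRPL36 and MRPL15 apart at the low end.

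Of the intervals tested over the 5 strains, that between 5 and 15 min had the most called genes. Within series, 42 of 62 tested genes rose from the earlier to the later of these times and 2 fell, MRPL36 and MRPL15, with a median change of 0.39, while 22.6% of all genes rose and 25.6% fell. RSM28 (0.72 ± 0.17 SE), MRP17 (0.68 ± 0.08) and RSM18 (0.65 ± 0.09) had the largest called rises, MRP17 and RSM18 being the counterparts of bacterial S6 and S18. MRPL36 fell by 0.77 with a standard error of 0.12 over this interval (limma, adjusted p = 5e-04). The rise was largest in M22, where the fitted median of the members went from -0.48 to 0.37. It went from -0.31 to -0.14 in K9 and from -0.125 to 0.165 in RM11-1a. In YPS163 it went from -0.18 to -0.0025 and in DBY8268 from -0.13 to 0.085. The YPS163 median moved further later, from -0.075 at 30 min to -0.74 at 60 min, an interval not tested. Between 15 and 30 min 11 of 63 rose and 1 fell, MRPL16 (-0.32 ± 0.11), against 33.7% and 16.3% of all genes. The 3 largest of these rises were MRPL36 (0.61 ± 0.14), MRPL37 (0.58 ± 0.12) and MRPL20 (0.51 ± 0.10), genes that had been low at 15 min. Between 30 and 120 min 17 of 64 fell and 1 rose, MRPL36 (0.48 ± 0.13), against 18.9% and 17.6% of all genes, and the median change was -0.24. MRPL25 (-0.78 ± 0.25), MRPL27 (-0.52 ± 0.11), MRPL24 (-0.47 ± 0.14) and, at the same value, RSM28 (-0.47 ± 0.11) had the largest called falls. Leaving out series 1 of M22 gave 27 called genes for the first interval. For the second interval every series but series 1 of RM11-1a and the YPS163 series took the count to 7 or below when left out, down to 3. For the third interval it was 8 without series 1 of DBY8268 and 9 without series 2 of DBY8268 or of K9.

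The strains parted after the first minutes. An F test of the 5 strain responses passed for 2 of 64 genes at 5 min, MRPL37 and MRP1. For the 5 later times it passed for 6, 22, 28, 44 and 45 genes. Over all genes tested the shares were 8.44%, 25.4%, 36.9%, 22%, 24% and 17.5%. In this fit the mitoribosomal genes were thus below the share of all genes at 5 and 15 min. They were close to it at 30 min and above it from 45 min on. At 120 min 26 of 37 large-subunit and 19 of 27 small-subunit genes passed, while by limma 0 of 130 genes of cytosolic ribosomal proteins did (0 at an unadjusted p under 0.05). This comparison holds for 120 min alone. The cytosolic medians then ran from -0.70 (DBY8268) to -0.385 (RM11-1a). They lay further apart at 5 min, from -1.17 (DBY8268) to -0.255 (YPS163), and at 30 min, from -2.24 (K9) to -0.955 (RM11-1a). With each series as a block the counts at 5, 15, 30 and 45 min were 5, 24, 34 and 44. That block takes the steady difference between a strain's 2 series out of the error. These larger counts thus do not allow for variation between series. Scaling every array to one spread left 1 gene at 5 min, 0 at 15 min and 5 at 30 min. At 5 min the count became 6 without series 1 of YPS163 and 0 or 1 without either series of DBY8268 or M22 or series 2 of K9. At 15 min it became 10 or 14 without a series of YPS163, 3 without either series of M22, series 1 of K9 or series 1 of DBY8268, and 2 without series 2 of DBY8268. Without series 1 of M22 the counts from 30 min on were 7, 15, 23 and 24, and without series 2 of M22 7 at 30 min and 27 at 60 min. Without series 2 of YPS163 44 became 27 at 60 min. That series' 60 min array is labelled a technical repeat, and without this array alone the count was 28.

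M22 and YPS163 stood at opposite ends. In M22 33 of 64 genes fell at 5 min, against 25.2% of all genes, with a median of -0.48. At 15 min 30 rose and 4 fell, MRPL15, MRPL36, MRPL37 and MRP4, with a median of 0.37, against 30.9% and 33.1% of all genes. At 60 min 23 rose and 2 fell, MRPL15 and MRPL3, with a median of 0.29, against 21.4% and 17.2%. At 120 min 32 rose, against 21.1% of all genes, with a median of 0.59, and limma called 0 falls at an adjusted and 0 at an unadjusted p under 0.05. In single M22 arrays at 120 min 58 of 63 and 59 of 65 measured genes lay above 0. The YPS163 genes went down as those of M22 stayed up. At 60 min 44 of 64 fell in YPS163, against 4.95% of all genes, with a median of -0.74, and no array value in series 2 was above 0 (66 of 66 below). This series 2 array is the one labelled a technical repeat, and the count of falls without it is not given. Fitted values at 60 min in YPS163 ran from -1.62 (MRPS17) to 0.05 (MRPL4, the counterpart of bacterial L29), and 63 of 64 were below 0. In M22 at 120 min they ran from -0.30 (MRPL15) to 1.33 (MRPS8), and 60 of 64 were above 0. At 120 min 36 fell and RSM19 alone rose (0.71 ± 0.15), against 8.81% and 19% of all genes, with a median of -0.56. Without 1 array series of the strain itself the M22 calls at 120 min were 13 and 21, and the YPS163 calls, 37 with RSM19, were 16 and 13.

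**Figure D4:**
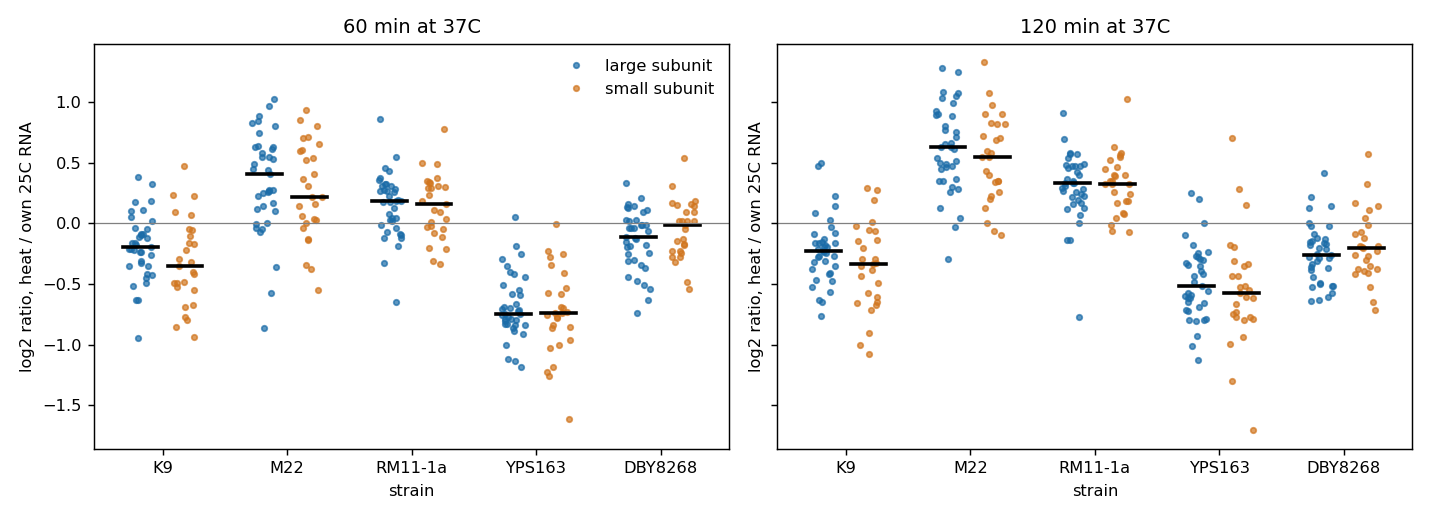
Log2 ratio to the same strain at 25C (vertical axis) at 60 and 120 min for K9, M22, RM11-1a, YPS163 and DBY8268; each point is a mitoribosomal gene's fitted value, large and small subunit side by side, and the bar is the median. The M22 genes sit around 0.29 at 60 min and 0.59 at 120 min, and the YPS163 genes around -0.74 and -0.56, in both subunits.

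The same fitted values were also set against the mean of the other 4 strains, which restates the contrast above and is not a second observation. In M22 10, 21, 27 and 37 genes were higher at 15, 30, 60 and 120 min, where 7.82%, 16%, 11.3% and 7.59% of all genes were, with median differences of 0.35, 0.44, 0.54 and 0.74. In YPS163 6 genes were lower at 30 min, 39 at 60 min and 28 at 120 min, where 2.91%, 5.23% and 3.35% of all genes were, with median differences of -0.33, -0.72 and -0.57. Of 55 genes measured on all 10 arrays of a time, 19 had both M22 arrays above all 8 others at 60 min and 26 at 120 min, as did 12.7% and 9.93% of all genes. Both YPS163 arrays lay below all others in 34 genes at 60 min and in 14 at 120 min, as did 6.54% and 3.2% of all genes.

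MRPL49 had the smallest p among the members at both late times. It encodes the counterpart of bacterial L21 in the large subunit. At 60 min its ratio was 0.12 and -0.31 in K9, 0.87 and 0.62 in M22, 0.34 and 0.01 in RM11-1a, -0.56 and -1.10 in YPS163, and -0.32 and -0.41 in DBY8268. At 120 min it was -0.11 and -0.38 in K9, 1.14 and 0.92 in M22, 0.54 and 0.42 in RM11-1a, -0.70 and -0.53 in YPS163, and -0.49 and -0.24 in DBY8268. The M22 arrays were the highest at both times, and at 120 min M22 and RM11-1a overlapped with no other strain (F test in limma, adjusted p = 9.11e-06 at 60 min and 9.43e-07 at 120 min). MRPS8, the counterpart of bacterial S8 in the small subunit, showed the same order. At 120 min it was 0.34 and -0.47 in K9, 1.44 and 1.21 in M22, 0.61 and 0.09 in RM11-1a, -0.99 and -0.60 in YPS163, and -0.20 and 0.29 in DBY8268. Both M22 arrays were above all others and both YPS163 arrays below them (F test in limma, adjusted p = 2.49e-06), and YPS163 stood below the mean of the other 4 strains by 1.21 (-1.21 ± 0.19 SE; limma, adjusted p = 4.72e-05).

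Further genes had high M22 or low YPS163 values at the late times. MRPL32, the counterpart of bacterial L32, whose precursor is cleaved by the m-AAA protease, was at -0.16 and -1.09 in K9, 1.25 and 0.85 in M22, 0.39 and 0.28 in RM11-1a, -1.54 and -0.71 in YPS163, and -0.76 and -0.38 in DBY8268 at 120 min. The M22 arrays were the highest, and 1 array each of K9 and DBY8268 fell inside the range of YPS163. M22 exceeded the mean of the other 4 strains by 1.53 ± 0.24 (SE; limma, adjusted p = 4.66e-05). MRPS17, the counterpart of bacterial S17, had the deepest late fall in YPS163. Its ratio at 120 min was -0.56 and -1.71 in K9, 0.65 and 0.54 in M22, 0.65 and -0.14 in RM11-1a, -2.17 and -1.24 in YPS163, and -0.37 and -0.17 in DBY8268. The difference of YPS163 from the other 4 was -1.58 ± 0.32 (SE; limma, adjusted p = 0.00131), although K9 series 2 lay within the YPS163 range. MRPL27, a large-subunit protein without a bacterial counterpart, was at -0.05 and -0.04 in K9, 1.04 and 0.89 in M22, 0.06 and 0.39 in RM11-1a, -1.07 and -1.29 in YPS163 at 60 min, and at -0.16 on the 1 DBY8268 array that measured it. The M22 and the YPS163 arrays overlapped with no other strain (F test in limma, adjusted p = 5.22e-05). MRPL25 had the largest M22 difference from the other 4 at 120 min (1.63 ± 0.27 SE; limma, adjusted p = 0.000202), with 1 DBY8268 array missing and YPS163 arrays as far apart as -1.79 and -0.23.

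The other 3 strains lay between these ends. In K9 11 genes fell at 60 min and 11 at 120 min, against 11.4% and 3.92% of all genes, with medians of -0.22 and -0.27. In RM11-1a RSM19 and MRPL39 rose at 60 min, 2 of 64 genes against 6.9% of all genes, and 13 rose at 120 min against 7.78%, with medians of 0.18 and 0.33. In DBY8268 RSM19 rose and 6 genes fell at 60 min, against 5.83% and 10.3% of all genes. At 120 min RSM19 rose and MRP2, MRPL31 and MRPL10 fell in DBY8268, 1 and 3 genes against 6.47% and 7.02% of all genes. At 15 min 4 genes rose in K9, MRPL28, MRP10, RSM7 and MRPL4, and 14 fell, with a median of -0.14, against 26.9% and 31.5% of all genes. Genes named because 5 or fewer were called, here and elsewhere, were chosen after their values were seen. The 120 min counts depended on the array series. Without K9 series 1 or 2 the K9 count was 5 or 0, without DBY8268 series 1 it was 6 and without M22 series 1 it was 7. Without RM11-1a series 1 or 2 the RM11-1a count was 2 or 7. The DBY8268 count, 4 in all, was 0 or 2 without a series of its own and 9 or 8 without a series of YPS163. With the series as a block the counts at 120 min were 20 in K9, 22 in RM11-1a and 14 in DBY8268. Here too the block takes the difference between a strain's series out of the error.

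RSM19 set K9 apart. At 120 min its ratio was -0.13 and -0.16 in K9, against 1.2 and 0.74 in M22, 1.25 and 0.79 in RM11-1a, 0.56 and 0.85 in YPS163, and 0.51 and 0.63 in DBY8268. The K9 arrays were the only ones below 0, and the difference of K9 from the other 4 was -0.96 ± 0.17 (SE; limma, adjusted p = 0.00106). RSM19 was the 1 member called lower in K9 at that time, when 0.826% of all genes were. At 15 min MRP35, the counterpart of bacterial L35 (-0.80 ± 0.19 SE; limma, adjusted p = 0.00956), and MRPL6, the counterpart of bacterial L6 (-0.58 ± 0.16 SE; limma, adjusted p = 0.0291), were the 2 members lower in K9 than in the other 4, when 1.83% of all genes were. The MRP35 values of K9 were far apart, at -0.92 and 0.14, whereas those of MRPL6 were close, at -0.55 and -0.48.

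RM11-1a had 5 genes above the other 4 strains at 120 min, when 0.94% of all genes were: MRPL33, MRPL39, MRP2, MRP51 and MRPL6, the last 3 named after their values were seen. MRPL33, the counterpart of bacterial L30, was at 0.82 and 0.57 in RM11-1a at 120 min, against -0.36 and -0.22 in K9, 0.36 and 0.72 in M22, -0.88 and -0.43 in YPS163, and -0.30 and -0.03 in DBY8268. The RM11-1a and M22 arrays overlapped and lay above the other 6 (difference of RM11-1a from the other 4 of 0.83 ± 0.18 SE; limma, adjusted p = 0.00654). At 30 min MRPL33 was also the 1 member called higher in RM11-1a (0.71 ± 0.18), when 5.83% of all genes were. MRPL39, the counterpart of bacterial L33, was the 1 member called higher in RM11-1a at 60 min, when 0.665% of all genes were, with values of 1.04 and 0.67 and a difference of 0.93 ± 0.24 (SE; limma, adjusted p = 0.0289).

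Single genes differed between strains at 15 min. MRPL49 was at -0.30 and 0.00 in K9, 0.80 and 0.75 in M22, 0.49 and 0.51 in RM11-1a, -0.06 and 0.14 in YPS163, and 0.11 and 0.25 in DBY8268 at 15 min, with M22 and RM11-1a above the rest (F test in limma, adjusted p = 0.00496). RSM18 at 30 min was at 1.43 and 0.89 in M22, against -0.06 and 0.41 in K9, 0.09 and -0.01 in RM11-1a, -0.02 and -0.39 in YPS163, and 0.14 and 0.52 in DBY8268. Both M22 arrays lay above the other 8 (difference of 1.09 ± 0.19 SE; limma, adjusted p = 7.51e-05). MRP13, a small-subunit protein without a bacterial counterpart, was called in both directions at 30 min. It was at 0.87 and 1.08 in M22 and at -0.39 and -0.65 in YPS163, against -0.42 and 0.15 in K9, -0.14 and 0.17 in RM11-1a, and 0.14 and 0.26 in DBY8268. M22 stood above the other 4 by 1.08 ± 0.23 (limma, adjusted p = 0.00117), and YPS163 differed from the other 4 by -0.79 ± 0.23 (limma, adjusted p = 0.0349). RSM28 and MRP20, which encodes the counterpart of bacterial L23, were the highest members called for M22 at 15 min, with differences of 1.10 ± 0.31 and 1.00 ± 0.34. MRPL11, the counterpart of bacterial L10, was lower in YPS163 at 30 min by 0.68 (-0.68 ± 0.18 SE; limma, adjusted p = 0.021). MRPL37 differed at 5 min already, at -0.43 and -0.02 in K9, -1.77 and -1.09 in M22, -0.97 and -0.58 in RM11-1a, -0.20 and -0.28 in YPS163, and -1.43 and -0.82 in DBY8268, with the K9 and YPS163 arrays the 4 highest (F test in limma, adjusted p = 0.0016).

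At 25C all 4 non-laboratory strains had more mitoribosomal message than DBY8268. The median ratio was 1.00 and 0.85 on the K9 arrays, 0.36 and 0.42 on the M22 arrays, 0.20 and 0.35 on the RM11-1a arrays, and 0.82 and 0.79 on the YPS163 arrays, while the array medians of all genes were at most 0.09 from 0. In K9 0 of 63 and 0 of 65 genes were below 0, in YPS163 2 on each array, in M22 9 and 4, and in RM11-1a 16 and 4. Of 65 tested genes 51 were higher in K9, 18 were in M22, RM11-1a had 7 and YPS163 had 48, against 7.86%, 10.2%, 7.75% and 7.99% of all 5306 genes tested. The count of lower genes was 0 in each of the 4 by limma at an adjusted p under 0.05, against 6.05%, 13%, 6.65% and 12.7% of all genes, and at an unadjusted p under 0.05 it was 0, 1, 0 and 0. For the mean of the 4 strains 61 genes were higher and 0 lower (0 at an unadjusted p under 0.05), against 18.7% and 22.1%, with a median of 0.61. Of 60 genes measured on all 8 arrays, both arrays were above 0 in 60 genes of K9, 52 of M22, 43 of RM11-1a and 57 of YPS163, as in 35.8%, 33%, 30.6% and 32.3% of all genes. The middle 50% of genes lay between 0.75 and 1.09 in K9 and between 0.57 and 1.01 in YPS163, against 0.19 to 0.58 in M22 and 0.17 to 0.44 in RM11-1a. The lowest fitted value was 0.36 in K9 (MRP10), -0.41 in M22 (RSM18), -0.26 in RM11-1a (MRPL20) and -0.01 in YPS163 (RSM23, a small-subunit gene), none of the last 3 called. The 8 arrays share DBY8268 as their reference, so the 4 strains' values are not independent of it.

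**Figure D5:**
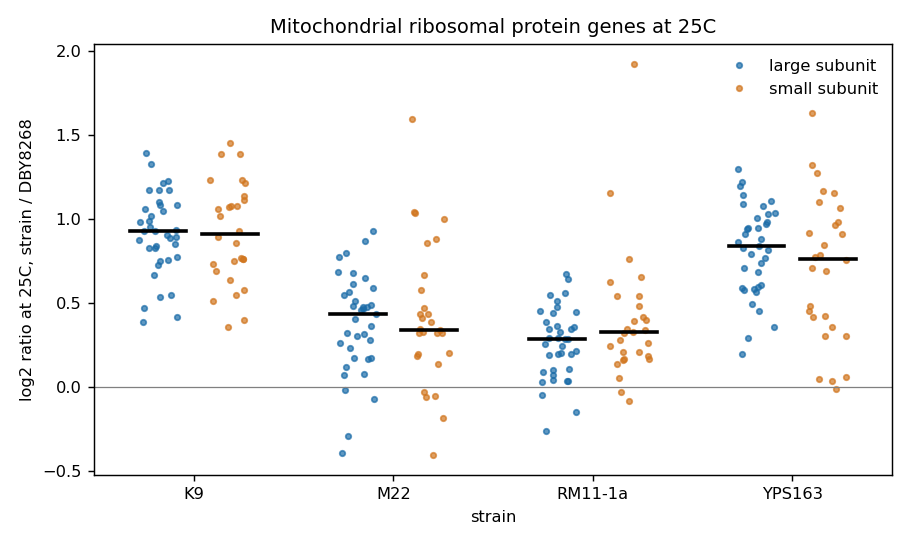
Log2 ratio to DBY8268 at 25C (vertical axis) for K9, M22, RM11-1a and YPS163; each point is a mitoribosomal gene's fitted value, large and small subunit side by side, and the bar is the median. Nearly all K9 and YPS163 genes lie above 0 and those of M22 and RM11-1a lie lower but mostly above 0, with little difference between subunits.

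The strains formed a high and a lower pair at 25C. M22 and RM11-1a together were lower than K9 and YPS163 in 21 of 65 genes and higher in 0 (0 at an unadjusted p under 0.05), with a median difference of -0.49, when 3.92% of all genes were lower by limma. This contrast was chosen after the values of the 4 strains were known. Large-subunit and small-subunit medians were 0.93 and 0.91 in K9, 0.44 and 0.34 in M22, 0.29 and 0.33 in RM11-1a, and 0.84 and 0.77 in YPS163. On single arrays the large subunit was the higher on 2 and the small subunit on 5 of 8, by at most 0.15. The counts rest on both arrays of a strain. Leaving out array 1 or 2 of a strain, with the lone array assumed to vary like the rest, left 3 or 4 called genes for K9, 4 or 5 for M22, 2 or 0 in RM11-1a and 6 or 11 in YPS163. The RM11-1a count also became 1 without either K9 array and 4 without either YPS163 array.

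MRPS16 was the member with the largest mean difference at 25C. It encodes the counterpart of bacterial S16 and was at 1.92 and 0.99 in K9, 2.26 and 0.93 in M22, 0.86 and 1.45 in RM11-1a, and 1.23 and 1.10 in YPS163. All 8 arrays were well above 0, but the 2 arrays of K9, of M22 and of RM11-1a were further apart than the 4 strain means (mean of the 4 strains 1.34 ± 0.15 SE; limma, adjusted p = 0.000583). MRPS17 was at 1.29 and 1.48 in K9, 0.45 and 0.42 in M22, 0.42 and 1.11 in RM11-1a, and 1.84 and 1.42 in YPS163. Its YPS163 arrays were not below 1.42 and its M22 arrays not above 0.45 (YPS163 over DBY8268 1.63 ± 0.20 SE; limma, adjusted p = 0.00197). MRPL3, whose product pairs with that of MRPL15 and has the same ribonuclease III-like fold, was at 1.21 and 1.57 in K9, 0.70 and 0.90 in M22, 0.18 and 0.41 in RM11-1a, and 0.77 and 1.19 in YPS163. K9 was the highest strain without overlap (1.39 ± 0.14 SE; limma, adjusted p = 0.00102). MRPS8 and MRPL33 followed MRPS17 in YPS163, at 1.32 ± 0.16 and 1.30 ± 0.15, while in M22 MRPS8 was at -0.14 and 0.02. In M22 RSM26, which has a superoxide dismutase-like fold, and MRPS35 followed MRPS16, at 1.04 ± 0.17 and 1.04 ± 0.14. MRP21, the counterpart of bacterial S21, had the highest RM11-1a value, 1.93 ± 0.31, but this rests on the 1 array that measured it.

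Genes of the same machinery that carry other names were read beside the members, from lists drawn up with earlier results of these data known. Of 14 tested mitoribosomal proteins with other names 7 rose and 3 fell at 15 min (median 0.16), when 38.1% of all genes rose and 39.9% fell, the highest being MHR1 (0.63 ± 0.08 SE) and PET123 (0.49 ± 0.09) and the fallers MNP1, RTC6 and NAM9. At 120 min in M22 10 of the 14 rose, against 21.1% of all genes, and 0 fell (0 at an unadjusted p under 0.05 in limma). At 60 min in YPS163 7 fell, against 4.95%, and 0 rose (0 at an unadjusted p under 0.05 in limma). Of 17 translation factors and aminoacyl-tRNA synthetases of mitochondria 13 rose and 2 fell, ISM1 and MRF1, at 15 min, against the same 38.1% and 39.9% of all genes, with a median of 0.50. The elongation factor gene MEF2 rose by 2.06 ± 0.12 (SE), the synthetase genes MSF1 and MSD1 by 0.88 ± 0.09 and 0.67 ± 0.06. At 60 min in YPS163 2 of these 17 fell, MEF1 and MST1. All 130 tested genes of cytosolic ribosomal proteins fell at 15 min, with a median of -2.55, the time at which more mitoribosomal genes rose than fell. At 25C 8 of the 14 mitoribosomal genes with other names were higher in K9 and 11 in YPS163, against 7.86% and 7.99% of all genes, with medians of 0.86 and 0.90, and the cytosolic ribosomal proteins had medians of 0.06 in K9 and 0.44 in YPS163 over 125 genes. MAM33, whose product is a matrix protein known to assist mitochondrial ribosome assembly, was at 2.37 and 2.58 in K9, 1.12 and 1.32 in M22, 0.56 and 0.65 in RM11-1a, and 1.14 and 1.81 in YPS163 at 25C. It fell by 0.48 at 15 min of heat (SE 0.08; limma, adjusted p = 5.86e-07).

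The members outside the fits were MRP7 and MRP21 in the time courses and MRPL23 at 25C. MRP7, the counterpart of bacterial L27, was read on 19 of 60 time-course arrays and MRP21 on 41, and neither had a value in every strain at every time. In YPS163 at 60 min MRP7 was at -0.28 and -0.86 and MRP21 at -1.23 and -0.71, below 0 on each array. MRP8 behaved unlike the ribosomal genes. Its ratio at 15 min was 2.69 and 2.84 in K9, 3.24 and 3.55 in M22, 2.55 and 2.58 in RM11-1a, 2.30 and 2.41 in YPS163, and 2.32 and 2.06 in DBY8268. The common response of MRP8 was 2.64 ± 0.09 (SE; limma, adjusted p = 1.08e-24), and the highest among the 64 ribosomal members was 0.89 (MRPL28). On every 15 min array MRP8 lay above the highest ribosomal member, and the ranges overlapped only between arrays of different strains. RSM28 reached 2.32 in M22 series 2, where MRP8 was at 3.55, and the lowest MRP8 value was 2.06 in DBY8268. At 25C MRP8 was lower in M22 by 1.07 (-1.07 ± 0.17 SE; limma, adjusted p = 0.00646), at -0.84 and -1.30.

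A single pair of neighbouring members was found in the R64 gene order, MRPS12 and RSM19, both of the small subunit. Their common responses were 0.20 ± 0.07 and 0.68 ± 0.07 at 15 min, 0.42 ± 0.07 and 0.74 ± 0.07 at 30 min, and 0.35 ± 0.07 and 0.62 ± 0.07 at 120 min (SE). Both rose at these 3 times, and the RSM19 values were the larger at each.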

How the data were processed

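The deposited table holds 1 value for each reading frame and array, taken here as the log2 ratio that the authors computed from the 2 channels, a test sample over its 25C sample or over DBY8268. The sources used here give neither the base nor the normalization, and base 2 is an assumption drawn from the values' spread around 0. RNA was extracted with hot phenol and labelled indirectly with amino-allyl-dUTP and 2 cyanine dyes, per the labels' protocols. Signals and spot quality were not used here, so the number of arrays alone limits the precision. Symbols and gene order came from RefSeq's R64 table, which matched 5832 of 6297 reading frames; 67 symbols met the naming rule, and all 67 had an entry. Protein and promoter sequences were not used here.

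A per-gene linear model with 30 group means and a dye term was fitted to 60 arrays, for 4360 genes with a value in every group, and variances were moderated with limma 3.58.1 in R 4.3.3. The 8 arrays at 25C were fitted with 4 strain means and the array number, which is also the dye orientation, for 5306 genes with at least 6 values. Benjamini-Hochberg adjusted p under 0.05 over all genes tested was the threshold. Differences between times were taken within series and tested over series, which makes the series a block. The fits were tested on simulated data with known changes. The simulated noise was independent between arrays, so this could not show the effect of arrays of a series deviating together. The moderated SD of a gene had a median of 0.294 over time-course arrays and of 0.245 over the 25C arrays. A gene measured on 1 array of a group had that array as the group's value.

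Series numbers pair arrays through their shared 25C sample, per the labels. The difference between series correlated between times with r of 0.04 to 0.79, and at 25C between strains with r of -0.05 to 0.31. Alternatives were the series as a block, no dye term, centring, scaling, a covariate for the array code, other filters on missing values, and leaving out single series and arrays. The shares of all genes given above belong to the main fit, and those of the alternatives are not given.

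Genes named were the 5 highest and 5 lowest called members of the common response at 15 and 30 min, the 3 at either end of each change and of each 25C contrast, the 5 smallest F test p, and 2 at either end of each strain difference; the last 2 rules were extended to 60 and 120 min after the data were seen. Members outside the fits, MRP8, PUF3 and up to 3 genes of each other list completed the rule. Members and lists were chosen with earlier results of these data known.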

Additional observations from a re-analysis of the deposited data

Results flagged for a closer look

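Strain differences in the heat response of the mitoribosomal genes were tested by the F test over 5 strains, which passed for 2, 6, 22, 28, 44 and 45 of 64 tested genes at the 6 times from 5 to 120 min (limma, Benjamini-Hochberg adjusted p under 0.05). The shares of all genes that passed were 8.44%, 25.4%, 36.9%, 22%, 24% and 17.5%. In this fit the members were below the share of all genes before 30 min and close to it at 30 min. They were above it from 45 min on.

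The genes with the smallest p differed with time. At 15 min they were MRPL49 (adjusted p = 0.00496), MRPL33 (0.00563), MRP35 (0.00883), MRPS8 (0.0315) and MRPS17 (0.0359). At 30 min they were RSM18 (adjusted p = 0.000437), MRPL33 (0.00281), MRP13 (0.00331), MRPL16 (0.00397) and MRPL49 (0.00488). At 60 min they were MRPL49 (adjusted p = 9.11e-06), MRPL27 (5.22e-05), MRP17 (7.85e-05), MRPS8 (0.000247) and MRPL33 (0.00038). At 120 min they were MRPL49 (adjusted p = 9.43e-07), MRPS8 (2.49e-06), MRPL32 (1.94e-05), MRPL6 (2.82e-05) and MRPL51 (7.28e-05). MRPL49 was among the 5 at each of these 4 times, and MRPS8 and MRPL33 at 3 of them.

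MRPL6, the counterpart of bacterial L6, was at 0.54 and 0.72 in M22 and at 0.48 and 0.50 in RM11-1a at 120 min, against -0.31 and -0.49 in K9, -0.50 and -0.54 in YPS163, and -0.25 and -0.09 in DBY8268. MRPL51, which has no bacterial counterpart, was at 0.88 and 0.92 in M22 and at 0.81 and 0.34 in RM11-1a, against -0.05 and -0.32 in K9, -0.97 and -0.47 in YPS163, and -0.34 and -0.08 in DBY8268. In both genes the M22 and RM11-1a arrays lay above 0 and all 6 others below. MRP17, the counterpart of bacterial S6, was at 0.79 and 0.81 in M22 at 60 min and at -0.55 and -1.01 in YPS163, with the other strains between -0.13 and 0.40.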

How the results depend on the processing

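Many counts of called members moved with the settings. No named value turned its sign under the alternatives run. The named values were picked as called extremes of the same data, and the alternatives reuse most arrays, so a kept sign says little. Of 67 named member values, 34 kept their side of the threshold under every alternative. Where a count moved by over 1.5 times, the cause was not tested. The share of all genes called in each alternative fit is not given, so these counts cannot be set against it. With the array code prefix as a covariate the common response had 20 called members at 15 min, 4 at 45 min and 11 at 120 min, the response at 120 min had 6 in K9 and 1 in RM11-1a, and the strain difference had 1 at 5 min. With arrays scaled to one spread the common response had 22 at 15 min and 37 at 60 min, the response at 120 min had 24 in K9, 20 in RM11-1a and 19 in DBY8268, the strain difference had 1 at 5 min, 0 at 15 min and 5 at 30 min, and the change from 15 to 30 min had 6. Centring gave 11 in DBY8268 at 120 min, and 1 and 12 in the strain difference at 5 and 15 min. Without the dye term the strain difference had 0 at 5 min.

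With the replicate block of series within strain the strain difference had 5, 24, 34 and 44 members at 5, 15, 30 and 45 min, and the response at 120 min had 20 in K9, 22 in RM11-1a and 14 in DBY8268. The block moved no other count by over 1.5 times (44, 43, 37, 29, 32 and 27 for the common response). It takes the steady difference between the series of a strain out of the error, so counts with it do not allow for variation between series. Without the block the changes between times had 45, 12 and 16 members, and at 25C K9 had 50, M22 17, RM11-1a 6, YPS163 45 and the mean of the 4 had 61.

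Among the 4 other strains the strain difference without M22 had 0, 1, 1, 11, 15 and 15 members at the 6 times, and without YPS163 4, 14 and 21 at 5, 15 and 60 min; these fits were chosen after seeing the data. Without the 3 arrays that cite another 25C sample it had 2 at 15 min and 7 at 30 min, and without the technical repeat 28 at 60 min.

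Leaving out 1 series or these arrays at a time gave 24 to 36, 18 to 40, 20 to 36, 15 to 28, 10 to 29 and 11 to 23 members for the common response at the 6 times, and 0 to 6, 2 to 14, 7 to 27, 15 to 33, 23 to 44 and 24 to 46 for the strain difference. For the response at 120 min K9 ranged over 0 to 14, M22 over 13 to 39, RM11-1a over 2 to 12, YPS163 over 13 to 36 and DBY8268 over 0 to 9. For the 3 changes between times, refitted without single series only, it gave 27 to 42, 3 to 10 and 8 to 18. At 25C the ranges were 3 to 54 (K9), 4 to 20 (M22), 0 to 6 (RM11-1a), 6 to 50 (YPS163) and 52 to 58 (mean). The median of the members at 120 min was 0.17 and 0.52 in RM11-1a without series 1 and 2.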

Other observations

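Adding each strain's difference from DBY8268 at 25C to its heat response gives a level relative to DBY8268 at 25C, as a median over 63 members with both values. At 25C and after 5, 15, 30, 45, 60 and 120 min this sum was 0.93, 0.66, 0.92, 1.03, 0.84, 0.76 and 0.67 in K9. In M22 it was 0.41, -0.10, 0.81, 1.03, 0.82, 0.75 and 1.03. In RM11-1a it was 0.29, 0.15, 0.43, 0.55, 0.62, 0.42 and 0.58, and in YPS163 0.82, 0.60, 0.78, 0.75, 0.48, 0.14 and 0.35. DBY8268 itself stood at -0.14, 0.08, 0.17, 0.14, -0.07 and -0.25 after the shift. M22 thus lay below K9 and YPS163 at 25C and stood highest of the 5 at 120 min on this scale, while YPS163 lay among the high strains at 25C and below K9, M22 and RM11-1a at 60 and 120 min. The sums join arrays of separate hybridisations and were not tested.

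PUF3, whose product is known to bind many mitoribosomal messages, was read on 30 of 60 time-course arrays and was not tested there. At 25C its ratio to DBY8268 was -0.56 and 1.93 in K9, 0.58 on 1 array in M22, 1.80 and 5.22 in RM11-1a, and 1.81 on 1 array in YPS163. Arrays of a strain disagreed by more than most strains differed, so no fitted value is given. VAR1, the ribosomal protein encoded by the mitochondrial genome, was at 3.64 and 3.71 in YPS163, -1.23 and 0.37 in RM11-1a, 1.64 and -0.29 in M22, and 1.68 on 1 array in K9.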
